A study of Rattus norvegicus with 24 samples.

Results

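RNA of the receptors for glucocorticoid hormones and of 7 genes known to answer to them was followed across 24 RNA-seq libraries of the rat nucleus accumbens (NAc). The members were Nr3c1, Nr3c2, Fkbp5, Sgk1, Tsc22d3, Zbtb16, Pdk4, Cdkn1a and Errfi1, taken by their gene symbols. These 9 symbols matched 11 of the 32545 gene models in the table, because Nr3c1 and Tsc22d3 are each listed as 2 models. All 11 models had a mean of at least 0.5 FPKM (read counts scaled by gene length and library size) in every comparison, so none was lost to the filter on low values.

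Adult male Sprague Dawley rats, 8 weeks old on arrival, were used in 2 experiments. In the injection experiment, rats were given 5 intermittent intraperitoneal (IP) injections of LPS at 250 µg/kg, a bacterial cell wall component that activates innate immunity, or of saline. After a gap that the labels give as 1 week, they received heroin IP on 5 days at doses rising from 1 to 5 mg/kg, or saline, and were killed 1 h after the last injection. The methods describe a shorter gap, and a session in a locomotor chamber between the last injection and death for every injected rat. Groups were named by the pretreatment and then the later drug, which gave Saline-Saline (the controls), LPS-Saline, LPS-Heroin and Saline-Heroin. In the self-administration (SA) experiment, rats with a jugular catheter took heroin at 0.075 mg/kg per infusion (Heroin-SA) or saline (Saline-SA) for 6 h in each of 10 daily sessions, and were killed directly after the last. No LPS is recorded for the SA rats. The SA rats were also housed singly on a reversed light cycle, so dose control, the locomotor session, surgery, housing, hour of day and time of death all differed between the experiments and cannot be told apart. Each group had 4 libraries, which the labels call biological replicates. The methods give a larger number of sequenced samples per group, and only these 4 were analysed here.

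Corticosterone, the main glucocorticoid of the rat, enters cells and binds 2 nuclear receptors. The mineralocorticoid receptor (Nr3c2) binds it tightly and is occupied at resting hormone levels, whereas the glucocorticoid receptor (Nr3c1) binds it less tightly and is filled at the daily peak and under stress. Bound receptor leaves its heat-shock protein chaperones, moves to the nucleus and acts at glucocorticoid response elements in DNA. In the NAc, a reward region made up mainly of medium spiny neurons, glucocorticoids are known to modulate dopamine signalling and drug taking. Hormone levels were not analysed here, and hormone release follows the time of day and handling.

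Each library held between 12312878 and 18850240 reads assigned to genes. The labelled tissue was checked against 10 medium spiny neuron markers, all of which passed the filter, with Ppp1r1b at a mean of 831 FPKM and Drd1 at 68.2 FPKM over the 24 libraries. The SA libraries stood apart from the injection libraries. On the first principal component of 13863 models, which held 23.3% of the variance, the 8 SA libraries lay between 13.01 and 58.2 and the 16 injection libraries between -26.9 and -6.07. Mitochondrial genes took 12.9% ± 2.47 (SD, n = 4) of reads in Saline-SA, 10.8% ± 0.743 (SD, n = 4) in Heroin-SA and group means of 7.78% to 8.31% in the injection experiment. Replicate 1 of Saline-Saline carried choroid plexus RNA, with a summed marker level of 338 FPKM against 1.10 to 13.7 FPKM in the other controls. Replicate 4 of LPS-Heroin followed at 32.8 FPKM, against 1.33 to 3.78 FPKM in the rest of its group, and without it the number of called models stayed at 0 in each injection comparison that uses it. Replicate 1 of Saline-Saline also had the highest Sgk1, Pdk4, Cdkn1a, Errfi1 and Tsc22d3 values of its group, so results that rest on it are given with and without it.

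Sequences around the start sites of transcription are shown for the members whose values are described most closely below: Sgk1 and Pdk4, whose levels varied together most among the targets, Fkbp5, the member called in the other direction between the 2 control groups, and Tsc22d3, which has 2 models. RefSeq (build GRCr8) gave 12 windows, from 250 bases before to 50 bases after a start site, for 7 of the 9 symbols. Capitals mark a TATA box. The windows are, in order, Sgk1 at chr1:24804782-24805081, Pdk4 at chr4:34568280-34568579, Fkbp5 at chr20:6543506-6543805, the downstream start of Tsc22d3 at chrX:109009985-109010284 and an upstream start of Tsc22d3 at chrX:109065381-109065680, all on the minus strand and written 5′ to 3′ in the direction of transcription.
Sgk1: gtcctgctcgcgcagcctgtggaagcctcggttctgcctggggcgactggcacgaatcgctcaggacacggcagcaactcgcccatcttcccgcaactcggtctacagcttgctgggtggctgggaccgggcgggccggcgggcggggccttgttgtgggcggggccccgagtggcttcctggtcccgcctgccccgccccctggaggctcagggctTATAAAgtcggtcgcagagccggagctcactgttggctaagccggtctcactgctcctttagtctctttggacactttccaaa
Pdk4: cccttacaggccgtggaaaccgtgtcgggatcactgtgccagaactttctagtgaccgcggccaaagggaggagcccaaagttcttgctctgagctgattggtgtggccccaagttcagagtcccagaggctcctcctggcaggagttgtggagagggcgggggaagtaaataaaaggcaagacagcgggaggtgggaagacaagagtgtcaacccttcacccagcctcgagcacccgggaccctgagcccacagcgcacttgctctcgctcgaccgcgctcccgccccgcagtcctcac
Fkbp5: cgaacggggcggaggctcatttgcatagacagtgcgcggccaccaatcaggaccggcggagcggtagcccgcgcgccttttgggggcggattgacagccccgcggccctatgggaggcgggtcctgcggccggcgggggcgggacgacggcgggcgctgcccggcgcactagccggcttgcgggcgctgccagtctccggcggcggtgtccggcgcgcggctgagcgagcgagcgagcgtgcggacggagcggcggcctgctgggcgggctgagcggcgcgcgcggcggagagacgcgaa
Tsc22d3 downstream start: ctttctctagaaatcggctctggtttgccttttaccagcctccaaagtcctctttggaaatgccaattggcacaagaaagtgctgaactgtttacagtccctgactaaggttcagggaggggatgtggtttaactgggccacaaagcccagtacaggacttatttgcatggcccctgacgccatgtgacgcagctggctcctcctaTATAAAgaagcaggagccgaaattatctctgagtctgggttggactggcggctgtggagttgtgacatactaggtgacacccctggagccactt
Tsc22d3 upstream start: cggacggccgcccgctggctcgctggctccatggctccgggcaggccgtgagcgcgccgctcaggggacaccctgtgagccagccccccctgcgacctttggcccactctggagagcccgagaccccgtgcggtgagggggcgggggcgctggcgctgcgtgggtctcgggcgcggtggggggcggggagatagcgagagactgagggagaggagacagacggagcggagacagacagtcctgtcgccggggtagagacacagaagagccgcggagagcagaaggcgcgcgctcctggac

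The windows ranged from 40.7% to 79.0% G and C over the 12. The TATA box letters TATAAA, searched on both strands, were found in 4 windows of 3 members (2 of the 3 Sgk1 starts, the downstream Tsc22d3 start and Errfi1), 33 to 55 bases before the start, and 14.2% of all 33469 RefSeq windows of this length hold them. The Sgk1 start shown has its match 33 bases before the start and the downstream Tsc22d3 start 44 bases before it. The full palindromic glucocorticoid response element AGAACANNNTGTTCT was in 0 of the 12 windows and in 0.0149% of all windows. Its half-site AGAACA, which lies within the palindrome, was likewise in 0 of 12, against 20.7% of all windows. The cyclic AMP response element TGACGTCA (1.83% of all windows) and the E-box CACGTG (6.42%) were in 0 of 12. The absence says only that these letters are not in these windows.

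Per length, Sgk1 was the most abundant member, with a mean of 63.3 FPKM over all libraries, followed by the main model of Tsc22d3 at 53.8 FPKM, Fkbp5 at 22.8 FPKM, the main model of Nr3c1 at 19.5 FPKM and Errfi1 at 18.3 FPKM. The remaining models averaged between 3.16 FPKM (Zbtb16) and 8.21 FPKM (short model of Nr3c1). Reads behind a value ranged from 1744 to 6452 for Sgk1, and from only 7 to 59 for the short model of Tsc22d3, whose values are the least precise. Nr3c2, on chromosome 19, spans 2 other models on the opposite strand, SNORA17 and LOC688462. Whether the counting used strand is not given in the sources used here, so some Nr3c2 reads could belong to them. In bulk tissue, fewer cells of a type and less RNA per cell cannot be told apart.

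**Figure D1:**
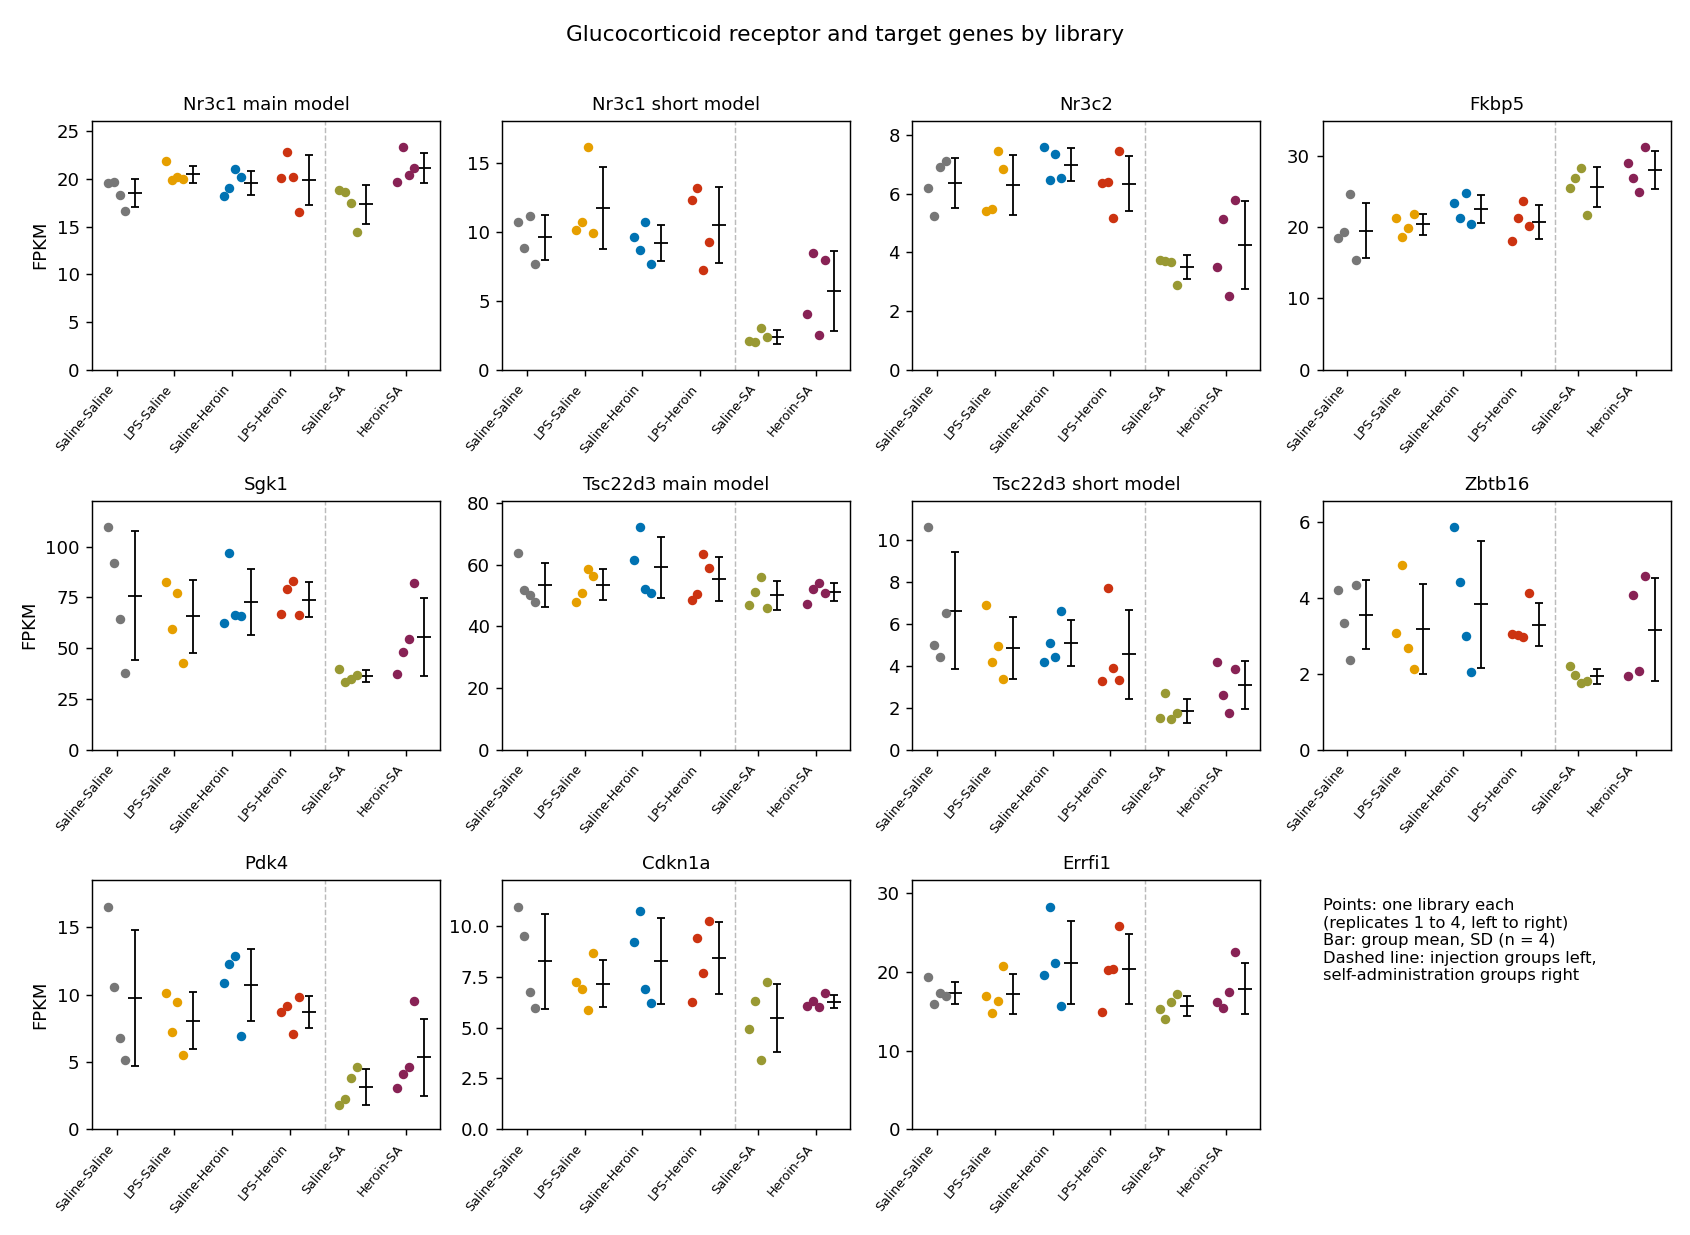
FPKM (vertical axis, from 0) of the 11 models in each of the 24 libraries, 1 point per library, with the group mean and SD (n = 4) beside the points. The 4 injection groups overlap in every panel but the main model of Nr3c1, where LPS-Saline sits above Saline-Saline, and both SA groups lie low for the short models, Nr3c2 and Pdk4.

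Nr3c1, the glucocorticoid receptor gene, is listed in the deposited annotation (rn6, chromosome 18, minus strand) as a main model of 5078 bases at 31728373 to 31749647 (ENSRNOG00000014096), which the annotation assigns to the nuclear hormone receptor family. A separate short model of 1239 bases lies at 32669427 to 32670665 (ENSRNOG00000048800) and is annotated with the GCR domain, the amino-terminal region of this receptor. They lie 919779 bases apart. Neither overlaps another listed model. Whether this split reflects the gene or an error in the rn6 assembly could not be checked here, so values of the short model, and its ratio to the main model, describe reads on that listed interval and not a known transcript.

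The main model of Nr3c1 measured 19.6, 19.6, 18.3 and 16.6 FPKM in the Saline-Saline libraries and 21.8, 19.9, 20.2 and 20.0 FPKM in LPS-Saline. It measured 18.2, 19.0, 20.99 and 20.2 FPKM in Saline-Heroin and 20.0, 22.9, 20.2 and 16.5 FPKM in LPS-Heroin. All LPS-Saline values lay above all Saline-Saline values, while both heroin-injected groups overlapped the controls. That separation came with a log2 fold change of 0.15 (SE 0.073, limma-trend adjusted p = 0.750, exact permutation p = 0.0286), short of the p and fold limits, and 4.11% of all genes tested had non-overlapping groups in this comparison. In Saline-SA it measured 18.9, 18.6, 17.5 and 14.4 FPKM and in Heroin-SA 19.6, 23.3, 20.4 and 21.2 FPKM, so the lowest Heroin-SA library exceeded the highest Saline-SA library.

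The short model of Nr3c1 showed a much wider contrast between the experiments. It measured 10.8, 8.84, 11.1 and 7.70 FPKM in Saline-Saline and only 2.10, 1.99, 3.06 and 2.41 FPKM in Saline-SA, with group means from 9.22 to 11.8 FPKM over the injection groups. Heroin-SA held 4.04, 8.47, 2.52 and 7.95 FPKM. Replicates 2 and 4 of Heroin-SA therefore reached the range of the injection rats while replicates 1 and 3 did not. Within a library, the short model received 12.7 ± 1.84 (SD, n = 4) reads per 100 reads of the main model in Saline-Saline, 3.42 ± 0.882 in Saline-SA and 6.51 ± 3.001 in Heroin-SA. This ratio does not depend on scaling between libraries. It could depend on how reads are spread along a gene, which was not tested. On the log2 scale this ratio was lower by 1.91 in Saline-SA than in Saline-Saline (difference -1.91, exact permutation p = 0.0286, two-sided, the smallest that 4 against 4 allows). Heroin-SA exceeded Saline-SA by 0.83 (exact permutation p = 0.114). Both tests of the ratio were chosen after the values had been seen.

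**Figure D2:**
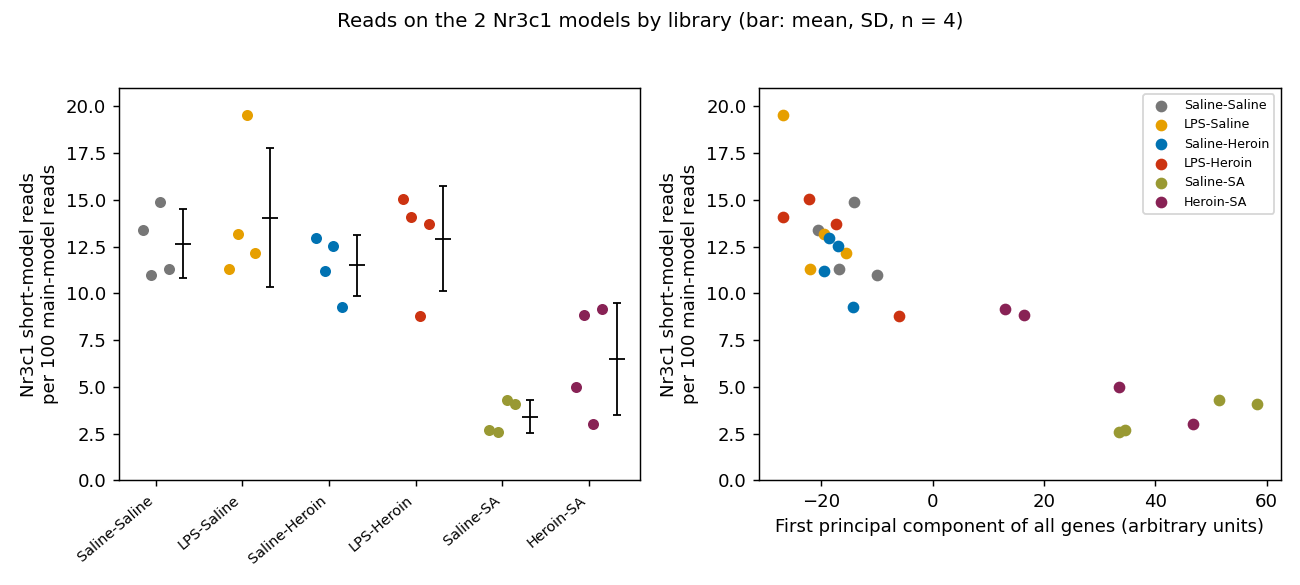
Reads of the short Nr3c1 model per 100 reads of the main model, by group with mean and SD (n = 4, left) and against the first principal component of all genes (right, arbitrary units), 1 point per library. All 16 injection libraries lie at 8.80 or more and all Saline-SA libraries at 4.28 or less, with Heroin-SA from 3.01 to 9.15.

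Replicates 2 and 4 of Heroin-SA, the libraries with the most short-model reads, also had the lowest first principal component of the SA experiment, 16.5 and 13.01, against 33.6 and 46.8 in replicates 1 and 3. Their mitochondrial shares, 10.5% and 10.0%, were the lowest of the SA libraries. The part of these library-wide differences in the short-model values was not tested.

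Nr3c2, the mineralocorticoid receptor gene, measured 6.18, 5.24, 6.91 and 7.12 FPKM in Saline-Saline, and its group means in the injection experiment lay between 6.30 and 6.98 FPKM. In Saline-SA it measured 3.73, 3.70, 3.66 and 2.90 FPKM, below every injection library. Heroin-SA held 3.50, 5.14, 2.52 and 5.79 FPKM. As with the short Nr3c1 model, replicates 2 and 4 of Heroin-SA were the higher pair.

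The question of the injection experiment was whether LPS pretreatment, heroin injections or both shifted these genes. A gene was called differentially expressed (a DEG) where the unadjusted limma-trend p did not exceed 0.05 and the change was 1.3-fold or more in either direction. None of the 11 models was called in any of the 5 pairwise comparisons, and none had an unadjusted p under 0.05 (0 of 11 in each). Over all genes tested, 2.37% were called in LPS-Saline against Saline-Saline, 3.07% in Saline-Heroin against Saline-Saline and 5.43% in LPS-Heroin against Saline-Saline. LPS-Heroin called 2.29% of genes against LPS-Saline and 2.2% against Saline-Heroin. Shares with an unadjusted p under 0.05 were 6.63%, 6.57%, 11.3%, 4.6% and 4.21% of all genes in the same order. With shares this low, 0 of 11 is near the background. Apart from the main Nr3c1 model in LPS-Saline, no model had groups that did not overlap, which in the remaining 4 comparisons held for 3.39%, 6.86%, 2.58% and 2.37% of all genes. The call counts were also 0 with limma-voom on the recovered reads, and without replicate 1 of Saline-Saline.

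The fits over all 16 injection libraries set 8 libraries against 8 for each averaged treatment effect. Again 0 of 11 models were called for LPS averaged over heroin (1.77% of all genes called), heroin averaged over LPS (2.46%) and the LPS by heroin interaction (2.31%). An unadjusted p under 0.05 was likewise reached by 0 of 11, against 6.67%, 8.11% and 4.02% of all genes. For Fkbp5 the averaged heroin effect was 0.12 on the log2 scale (95% confidence interval -0.060 to 0.30) and the averaged LPS effect -0.02 (-0.20 to 0.16). For the main Nr3c1 model the averaged LPS effect was 0.08 (-0.053 to 0.21) and the averaged heroin effect 0.02 (-0.12 to 0.15). The intervals of these 2 genes leave out changes past the fold limit in either direction. Sgk1 was far less tightly bounded, with an averaged heroin effect of 0.12 (-0.30 to 0.54). Of these averaged effects, that of heroin on Errfi1 lay farthest from 0 relative to its error, with an averaged heroin effect of 0.24 (-0.018 to 0.50, limma-trend adjusted p = 0.655, exact permutation p = 0.0824).

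**Figure D3:**
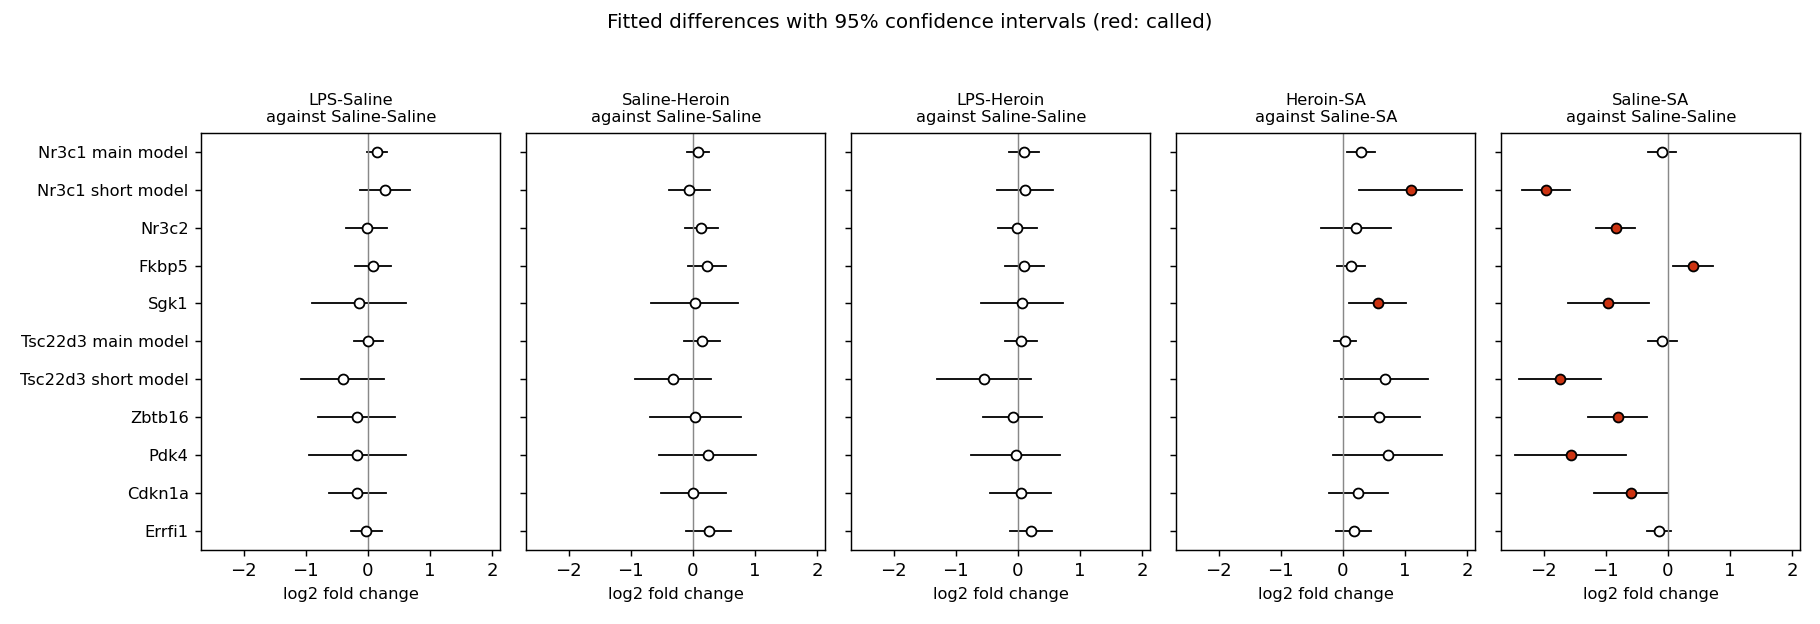
Fitted log2 fold change (horizontal axis) with its 95% confidence interval for the 11 models in 5 comparisons, filled red where called. The 3 injection comparisons cross 0 for every model, Heroin-SA against Saline-SA lies to the right of 0 throughout with 2 models called, and Saline-SA against Saline-Saline has 8 models called, of which Fkbp5 alone is to the right. All panels but Heroin-SA against Saline-SA share the Saline-Saline libraries.

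The width of the Sgk1 interval came from rats of the same treatment. Sgk1, which encodes a serum- and glucocorticoid-induced kinase that acts on ion channels and is expressed in oligodendrocytes as well as neurons, measured 109.6, 92.0, 64.4 and 37.5 FPKM in Saline-Saline. It measured 82.8, 59.5, 77.2 and 42.9 FPKM in LPS-Saline, 62.2, 96.8, 66.3 and 65.6 FPKM in Saline-Heroin and 66.9, 79.1, 83.2 and 66.1 FPKM in LPS-Heroin. The saline controls thus covered the whole range of the other 3 injection groups, with a coefficient of variation of 41.7%. In Saline-SA the gene was tight and low, at 39.9, 33.2, 34.8 and 36.9 FPKM (coefficient of variation 8.05%), and in Heroin-SA it spread again to 37.4, 48.1, 54.3 and 82.2 FPKM.

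Pdk4, a mitochondrial kinase that holds back pyruvate oxidation in favour of fat, showed the same width in the controls, with 16.5, 10.6, 6.79 and 5.16 FPKM in Saline-Saline. Its other injection groups averaged 8.07 FPKM in LPS-Saline, 10.7 FPKM in Saline-Heroin and 8.69 FPKM in LPS-Heroin. In Saline-SA it measured 1.84, 2.23, 3.80 and 4.64 FPKM, below every injection library, and in Heroin-SA 3.09, 4.08, 4.64 and 9.56 FPKM. Cdkn1a, which encodes the cell cycle inhibitor p21, ranged from 5.94 to 10.9 FPKM in Saline-Saline, 3.40 to 7.22 FPKM in Saline-SA and 5.99 to 6.72 FPKM in Heroin-SA.

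Fkbp5 encodes a co-chaperone that lowers the hormone affinity of the glucocorticoid receptor and is itself induced by it, a short feedback loop. It measured 18.5, 19.3, 24.7 and 15.5 FPKM in Saline-Saline, 21.3, 18.6, 19.9 and 21.9 FPKM in LPS-Saline, 23.4, 21.3, 24.8 and 20.5 FPKM in Saline-Heroin and 18.0, 21.2, 23.7 and 20.1 FPKM in LPS-Heroin. These 4 groups overlapped throughout. Saline-SA held 25.5, 26.9, 28.3 and 21.7 FPKM and Heroin-SA 29.0, 26.8, 25.0 and 31.2 FPKM, the highest group mean of this gene (28.0 ± 2.69 FPKM, SD, n = 4). The order of its group means was Saline-Saline, LPS-Saline, LPS-Heroin, Saline-Heroin, Saline-SA and Heroin-SA, and each neighbouring pair overlapped.

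Tsc22d3 encodes GILZ, a leucine zipper protein that mediates anti-inflammatory actions of glucocorticoids. Its main model (ENSRNOG00000056135) averaged between 50.1 FPKM in Saline-SA and 59.2 FPKM in Saline-Heroin. The short model of Tsc22d3 (ENSRNOG00000060899), 54195 bases away on chromosome X in rn6, fell from 10.6, 4.97, 4.42 and 6.52 FPKM in Saline-Saline to 1.51, 2.70, 1.48 and 1.73 FPKM in Saline-SA, where it rested on 7 to 17 reads. Per 100 reads of the main Tsc22d3 model, the short one received 1.57 to 2.96 reads in Saline-Saline libraries and 0.470 to 0.938 in Saline-SA. A lower ratio of short to main model in Saline-SA was thus seen for Nr3c1 and Tsc22d3 alike. In GRCr8 the RefSeq starts of Tsc22d3 printed above lie 55396 bases apart. Coordinates were not converted between the builds, so neither model was assigned to a start.

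Zbtb16, also called PLZF, is a zinc finger transcription factor and one of the sharpest glucocorticoid responders in many tissues. It was the least abundant member, at 4.21, 3.34, 2.35 and 4.34 FPKM in Saline-Saline, 2.20, 1.98, 1.75 and 1.82 FPKM in Saline-SA and 1.93, 4.08, 2.07 and 4.59 FPKM in Heroin-SA. Replicates 2 and 4 of Heroin-SA were again the higher pair. Errfi1, an inhibitor of the epidermal growth factor receptor, averaged between 15.7 FPKM in Saline-SA and 21.2 FPKM in Saline-Heroin, where its 4 libraries ran from 15.6 to 28.2 FPKM.

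Heroin-SA against Saline-SA asked what self-administered heroin did within the same setting. In this comparison 2 of 11 models were called, both higher, against 5.45% of all genes called and 3.04% called higher. Sgk1 rose from 36.2 ± 2.91 to 55.5 ± 19.1 FPKM (SD, n = 4 each), a log2 fold change of 0.56 (SE 0.20, limma-trend p = 0.0228, adjusted p = 0.371, exact permutation p = 0.0571). The short Nr3c1 model rose from 2.39 ± 0.482 to 5.74 ± 2.92 FPKM, a log2 fold change of 1.09 (SE 0.37, p = 0.0152, adjusted p = 0.351, exact permutation p = 0.0571). Neither separation was complete, since the lowest Heroin-SA library of each fell within the Saline-SA range.

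The main Nr3c1 model was higher by 0.29 on the log2 scale in Heroin-SA (95% confidence interval 0.059 to 0.52, limma-trend adjusted p = 0.366, exact permutation p = 0.0286). It passed the p limit but not the fold limit. It was the 1 model of 11 whose groups did not overlap, against 6.8% of all genes tested. All 11 fitted differences lay above 0, with a median of 0.29, whereas the median over all genes tested was 0.01 and 7763 of 15024 lay above 0. The 11 models are not independent of each other, and 0 of 15024 genes had a limma-trend adjusted p below 0.05, by limma-voom also 0, while 819 were called. Saline-SA had the lowest group mean of all groups for every model but Fkbp5. With injected heroin, 9 of 11 lay above 0 in Saline-Heroin against Saline-Saline (median 0.08). In LPS-Heroin against LPS-Saline it was 8 of 11 (median 0.05).

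Pdk4 (log2 fold change 0.72, 95% confidence interval -0.15 to 1.59), the short Tsc22d3 model (0.67, -0.024 to 1.37) and Zbtb16 (0.59, -0.071 to 1.24) had fold changes past the limit with p-values that missed theirs. Which models were called turned on single rats. Without replicate 4 of Heroin-SA, the highest Sgk1 library, the Sgk1 difference was 0.35 and no longer called, leaving the short Nr3c1 model alone, and without replicate 2 of Saline-SA it was 0.52 and missed the p limit. Without replicate 1 of Heroin-SA 4 of 11 models were called, Pdk4 and Zbtb16 being added, and without its replicate 3 also 4, with the short Tsc22d3 model and Zbtb16 added.

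Marker lists were compared in the same libraries. None of the 10 medium spiny neuron, oligodendrocyte or microglia markers each was called between Heroin-SA and Saline-SA, and 1 of 10 astrocyte markers was higher and 1 lower. Over all genes 5.45% were called. Of 11 immediate-early genes, which mark recent neuronal activity, 7 were called lower in Heroin-SA, where their summed level ran from 165 to 245 FPKM against 264 to 303 FPKM in Saline-SA. Replicate 4 of Heroin-SA, the highest in Sgk1, had the highest summed oligodendrocyte level of the SA libraries, 5935 FPKM, and the lowest summed cortical neuron level, 70.6 FPKM. Its summed red blood cell level was also the highest, 681 FPKM, followed by 625 FPKM in replicate 4 of Saline-SA. Its immediate-early level, 165 FPKM, was the lowest of the SA libraries. The part of these lists in the Sgk1 and Nr3c1 differences was not tested.

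The difference between the heroin effects of the 2 experiments was fitted as Heroin-SA less Saline-SA minus Saline-Heroin less Saline-Saline. It was called for 2 of 11 models, the short Nr3c1 model (1.15, SE 0.42, limma-trend adjusted p = 0.718) and the short Tsc22d3 model (0.99, SE 0.43, adjusted p = 0.747), both above 0, against 4.38% of all genes called and 2.64% called above 0. Without replicate 1 of Saline-Saline, or without any of 7 other single libraries, only the short Nr3c1 model was called. For Sgk1 the difference was 0.53 with a 95% confidence interval of -0.32 to 1.38. Without replicate 4 of Saline-Saline, the control with the lowest Sgk1, the Sgk1 difference was 0.83 and was called, while the short Tsc22d3 model was not. The call for Sgk1 thus turned on 1 control library.

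Saline-SA against Saline-Saline compared the control rats of the 2 experiments, none of which received heroin or LPS. Here 8 of 11 models were called, 7 lower and 1 higher in Saline-SA, where 22.8% of all genes were called, 14.3% lower and 8.47% higher. The split over all genes depended on scaling: 37.2% of called genes were higher as deposited, 50.6% after libraries were set to equal medians and 26.4% with limma-voom. With equal medians or quantile normalization 7 models were called, 1 higher and 6 lower, Cdkn1a being lost, and with limma-voom 7 were called, all lower, Fkbp5 being lost. Adjusted p-values were below 0.05 for 6 of 11 models and for 23.7% of all genes, and 5 of 11 models had groups that did not overlap, against 28.3% of all genes.

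The short Nr3c1 model fell furthest, with a log2 fold change of -1.97 (SE 0.17, limma-trend adjusted p = 0.000243), followed by the short Tsc22d3 model (-1.74, SE 0.29, adjusted p = 0.00411) and Pdk4 (-1.57, SE 0.40, adjusted p = 0.0221). Sgk1 (-0.96, SE 0.29, adjusted p = 0.0397), Nr3c2 (-0.84, SE 0.14, adjusted p = 0.00355) and Zbtb16 (-0.81, SE 0.21, adjusted p = 0.0229) also fell. Nr3c2 and the interval listed as the short Nr3c1 model were thus lower in the SA controls. The main Nr3c1 model did not pass the test (-0.10, 95% confidence interval -0.33 to 0.13), so a fall of the glucocorticoid receptor gene as a whole was not shown. The main Tsc22d3 model (-0.09) and Errfi1 (-0.15) did not pass either. Without replicate 1 of Saline-Saline, Pdk4 was at -1.27 and Sgk1 at -0.75, and 7 models were called.

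Fkbp5 went the other way, higher in Saline-SA with a log2 fold change of 0.40 (SE 0.14, limma-trend adjusted p = 0.0690, exact permutation p = 0.0571). Cdkn1a was lower by a log2 fold change of -0.60 (SE 0.26, adjusted p = 0.133, exact permutation p = 0.143). Both calls were lost on leaving out single libraries: Fkbp5 without replicate 4 of Saline-Saline (0.30) or replicate 3 of Saline-SA (0.36), and Cdkn1a without replicate 1 or 2 of Saline-Saline (-0.45 and -0.52) or replicate 1 or 3 of Saline-SA (-0.57 and -0.39).

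Cell type markers were called between these control groups too. In Saline-SA, 7 of 10 medium spiny neuron markers were called higher, with a summed level of 1914 to 3266 FPKM against 1228 to 2498 FPKM in Saline-Saline, and 3 of 8 endothelial markers, at 91.9 to 119 FPKM against 75.7 to 83.3 FPKM. Lower in Saline-SA were 7 of 10 oligodendrocyte markers, at 4752 to 5425 FPKM against 5017 to 7796 FPKM, 3 of 10 astrocyte markers, 2 of 10 microglia markers, 1 of 9 cortical neuron markers and 6 of 11 immediate-early genes, and 1 of 3 red blood cell markers was higher. With 22.8% of all genes called, the astrocyte, microglia and cortical counts were near the background. The part of these markers in the values of the receptors and targets was not tested.

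The wider pathway was read from lists of 10 receptor chaperones, 7 genes of steroid access and metabolism, 12 coregulators, 7 genes of the corticotropin-releasing hormone system and 40 other glucocorticoid targets, of which Mt1 has 2 models. In the injection experiment no chaperone, steroid access gene or coregulator was called in any pairwise comparison. Among the other targets, LPS-Saline called 0 of 39 tested models and Saline-Heroin 1 of 40 against Saline-Saline, Angptl4, a lipase inhibitor (log2 fold change -0.73, adjusted p = 0.750). Over all genes the called shares were 2.37% and 3.07%. LPS-Heroin called 2 of 40, both higher, against Saline-Saline, led by the metallothionein Mt2A (0.43, adjusted p = 0.344). In that comparison 5.43% of all genes were called. The stress peptide gene Crh was lower in LPS-Heroin than in Saline-Saline (-1.20, adjusted p = 0.352) and its binding protein Crhbp higher (0.44, adjusted p = 0.402). In the same comparison 6 of 9 cortical neuron markers were called higher (median log2 fold change 1.05), with a summed level of 394 to 484 FPKM in LPS-Heroin against 124 to 318 FPKM in Saline-Saline. None of the 9 was called between LPS-Heroin and LPS-Saline, and 3 were higher in LPS-Heroin than in Saline-Heroin. The part of cortical RNA in the Crh and Crhbp values was not tested.

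Against LPS-Saline, LPS-Heroin called 5 of 40 other targets, 3 higher and 2 lower, where 2.29% of all genes were called. They were led by Mt2A (log2 fold change 0.54) and Irs2, an adaptor of insulin signalling (-0.49), and Crh was again lower (-1.40, all with an adjusted p of 0.977). Against Saline-Heroin, 1 of 41 was called (2.2% of all genes), the MAP kinase phosphatase gene Dusp1 (0.55, limma-trend adjusted p = 0.9998). Averaged over heroin, LPS called 1 higher (Dusp1, 0.45) and 1 lower (the less abundant Mt1 model, -0.55) of 40, against 1.77% of all genes. Averaged over LPS, heroin called 1 higher, the kinase gene Map3k6 (0.80), and 2 lower, led by Irs2 (-0.42), and Crh fell as well (-0.94, adjusted p = 0.549). The interaction called only Angptl4 (0.70). Averaged heroin called 2.46% of all genes and the interaction 2.31%. Dusp1 also stands in the immediate-early list. Of its 11 genes tested, 3 were called higher for averaged LPS, with 11 of 11 above 0, and 1 was called in LPS-Heroin against Saline-Heroin, also with 11 of 11 above 0. Averaged heroin called 9 of 11 lower. The summed level of the list ran from 267 to 465 FPKM in Saline-Saline, 412 to 521 FPKM in LPS-Saline and 164 to 260 FPKM in Saline-Heroin. In LPS-Heroin it was 536 FPKM in replicate 1 and 221 to 267 FPKM in the other libraries. The part of this list, and of that 1 library, in the Dusp1 values was not tested. These comparisons share libraries, so a gene named repeatedly is not repeated evidence.

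In Heroin-SA against Saline-SA, 5 of 41 models of other targets were called, 1 higher and 4 lower, against 5.45% of all genes. Mt1 encodes a zinc-binding metallothionein. Its more abundant model fell from 62.5 ± 9.39 to 30.2 ± 9.56 FPKM (SD, n = 4), a log2 fold change of -1.08 (limma-trend adjusted p = 0.255). Mfsd2a, a lipid transporter of the blood-brain barrier, fell from 11.002 ± 0.618 to 8.01 ± 0.660 FPKM (-0.46, adjusted p = 0.255). Of the 4 steroid access genes tested, 1 was called, Srd5a1, which encodes a steroid 5-alpha reductase and fell from 12.9 ± 0.530 to 9.80 ± 0.683 FPKM (-0.40, adjusted p = 0.255). No chaperone or coregulator was called. Of the targets, the group mean of Sgk1 was higher and that of the more abundant Mt1 model lower in Heroin-SA. Sgk1 and Mt1 were not compared rat by rat. Between the heroin effects of the experiments, 4.38% of all genes were called. The pathway calls of smallest p were the chaperone partner Fkbp4 (0.40, limma-trend adjusted p = 0.663), the more abundant Mt1 model (-0.91, 0.685) and Hsp90aa1 (2.32, 0.718). Hsp90aa1 lay near the filter, at 0.313 FPKM in Saline-SA and 1.51 FPKM in Saline-Saline, and its difference had an SE of 0.86.

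Between the control groups, 14 of 41 models of other targets were called, 7 higher and 7 lower in Saline-SA, against 22.8% of all genes. The median log2 fold change of the 41 was -0.01. The smallest p-values belonged to Per1, a clock gene that glucocorticoids also induce, at 23.4 ± 0.792 FPKM in Saline-SA against 34.6 ± 1.01 FPKM in Saline-Saline (SD, n = 4; -0.56, adjusted p = 0.000426), Arrdc3, an arrestin-domain protein gene (-1.34, adjusted p = 0.000884), and Acer2, a ceramidase gene (1.24, adjusted p = 0.00158). Per1 also stands in a list of 15 clock genes, of which 1 was called higher and 3 lower in Saline-SA. The part of the clock in the Per1 values was not tested. Of 12 coregulators, 1 was higher and 2 lower, and 1 of 10 chaperones was lower. Of the 8 target models among the members, 5 were called lower and 1 higher, beside 7 and 7 in the wider target list. The 7 higher there included both Mt1 models and Mt2A. The difference between the lists was not tested.

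Rats of one treatment also differed from each other, and the members were compared rat by rat as deviations of log2(FPKM + 0.1) from their group means over the 24 libraries. Of 55 pairs of models, 41 had a correlation above 0 and 0 passed an adjusted p under 0.05, with 6 at an unadjusted permutation p under 0.05. Closest to passing was Sgk1 with Pdk4, at Pearson r = 0.73 (permutation p = 0.00118, adjusted p = 0.0649) and Spearman rho = 0.63 (permutation p = 0.00387). Within the experiments r was 0.80 over the 16 injection libraries and 0.68 over the 8 SA libraries, and it was 0.63 without the 2 libraries farthest from the Sgk1 median and 0.67 without replicate 1 of Saline-Saline. The short Nr3c1 model with Nr3c2 gave r = 0.74 (permutation p = 0.0133, adjusted p = 0.244) and rho = 0.50 (permutation p = 0.0773). This r was 0.46 in the injection libraries, 0.88 in the SA libraries, 0.56 without the 2 farthest and 0.75 without replicate 1 of Saline-Saline.

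The members were also set against 10 marker lists and the mitochondrial share, a comparison added after the values had been seen, in which 2 of 121 pairs passed. Sgk1 was lower where the immediate-early genes were higher (r = -0.60, permutation p = 0.00065, adjusted p = 0.0393; rho = -0.73, permutation p = 0.00064), with r = -0.58 in the injection libraries, -0.76 in the SA libraries, -0.68 without the 2 farthest and -0.53 without replicate 1 of Saline-Saline. Zbtb16 was lower where the mitochondrial share was higher (r = -0.47, permutation p = 2e-05, adjusted p = 0.00242), with rho = -0.68 (permutation p = 0.0001). Its r was -0.72 and -0.44 in the injection and SA libraries, -0.59 without the 2 farthest and -0.45 without replicate 1 of Saline-Saline. Fkbp5 and the medium spiny neuron list had r = 0.75, which did not pass (permutation p = 0.00151, adjusted p = 0.0609), with rho = 0.68 (permutation p = 0.00246). That r was 0.68 without the 2 farthest and 0.77 without replicate 1 of Saline-Saline.

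**Figure D4:**
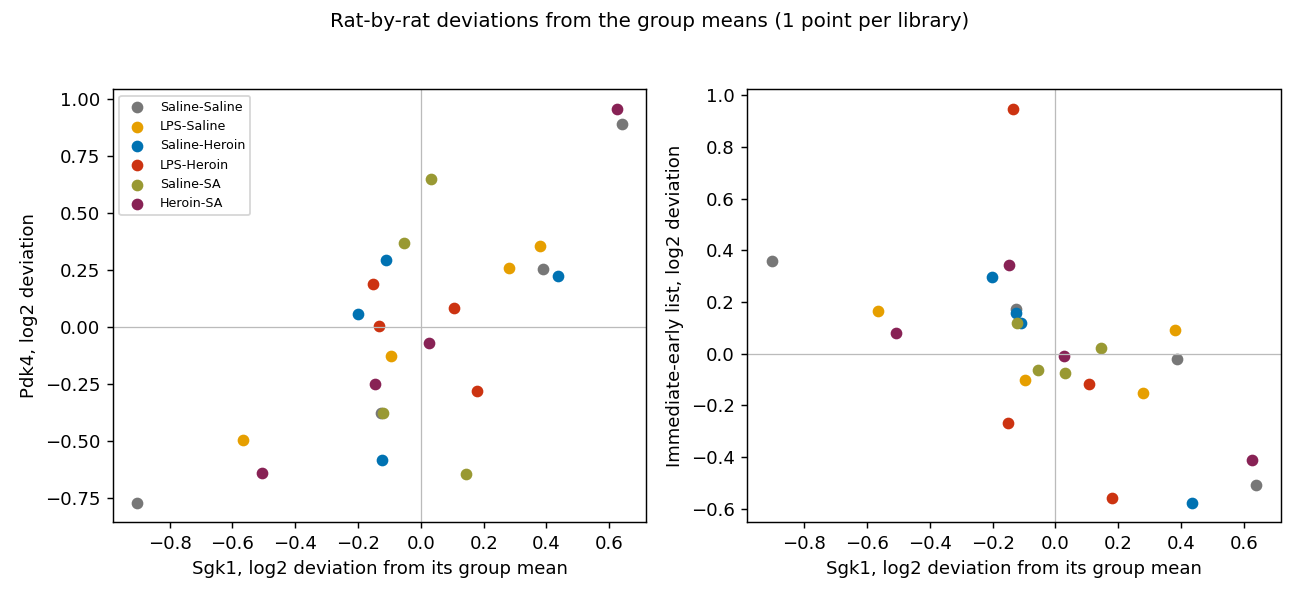
Deviation of Sgk1 from its group mean (horizontal axis, log2 scale) against that of Pdk4 (left) and of the mean immediate-early list (right), 1 point per library in the 6 groups. Sgk1 and Pdk4 rise together (r = 0.73), while Sgk1 and the immediate-early list run in opposite directions (r = -0.60).

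As a description, the genes most like 3 of the members in these deviations were ranked among 12573 genes with a mean of at least 1 FPKM. Closest to Fkbp5 were Gabra4 (r = 0.86), a GABA-A receptor subunit, Penk (0.84), the proenkephalin gene of medium spiny neurons, Fam110b (0.84) and Rab40b (0.84). Closest to Sgk1 were Olig2 (0.83), a transcription factor of the oligodendrocyte lineage, Tnfrsf11a (0.82), Ptpdc1 (0.80) and Gpd1 (0.80), a glycerol phosphate enzyme. Closest to the main Nr3c1 model were Dixdc1 (0.85), Nipa1 (0.84), Plcl1 (0.83) and Taf4b (0.78). Each r spans 24 libraries that share depth and dissection. All 12 were positive within the injection and within the SA libraries. The genes were picked for a high r over these same libraries, so this is no separate support.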

How the data were processed

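Polyadenylated RNA was sequenced as directional libraries from 300 ng of total RNA per rat. Per the labels, the authors trimmed reads with fastp, aligned them to rn6 with HISAT2 and counted them with featureCounts (versions and strand setting are not given in the sources used here), and deposited FPKM values for 32545 gene models. Each value was a whole multiple (within 0.01) of what 1 read is worth, and whole reads were recovered from 100% of values.

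Members and gene lists were chosen with earlier results of these data known. Named from the lists were the 3 called genes with the smallest p per comparison, and the 4 genes most like Fkbp5, Sgk1 and Nr3c1. With limma 3.58.1 in R 4.3.3, limma-trend was fitted to log2(FPKM + 0.1) of the groups compared, over models with a mean FPKM of at least 0.5, with Benjamini-Hochberg adjustment over all models tested. Fold changes are on that scale. Exact permutation tests were two-sided; correlations used 100000 permutations within groups. The authors' own test was DESeq2. Alternatives included other pseudocounts, filters and scalings, limma-voom, a replicate block and leaving out each library. The fit was tested on simulated reads.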

Additional observations from a re-analysis of the deposited data

Results flagged for a closer look

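In 6 of the 66 sets of 4 libraries (11 models in 6 groups) 1 library lay far from the other 3; chance alone flags about 1 in 20 sets. The main Nr3c1 model in LPS-Saline replicate 1 was high, at 21.8 FPKM against 19.9 to 20.2 FPKM in the others, and its short model in LPS-Saline replicate 3 was high, at 16.2 FPKM. Nr3c2 in Saline-SA replicate 4 was low, at 2.90 FPKM. Sgk1 in Saline-Heroin replicate 2 was high, at 96.8 FPKM against 62.2 to 66.3 FPKM. The short Tsc22d3 model in LPS-Heroin replicate 2 was high, at 7.71 FPKM, and Zbtb16 in LPS-Heroin replicate 4 was high, at 4.14 FPKM against 2.98 to 3.06 FPKM. That last library also held the most choroid plexus RNA of its group, with a summed marker level of 32.8 FPKM against 1.33 to 3.78 FPKM, and its highest Errfi1 (25.9 FPKM) and Cdkn1a (10.3 FPKM). Its part in the Zbtb16 value was not tested.

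The fit of the difference between the heroin effects of the 2 experiments called 2 of 11 models, against 4.38% of all genes. They were the short Nr3c1 model (1.15 on the log2 scale, limma-trend adjusted p = 0.718) and the short Tsc22d3 model (0.99, adjusted p = 0.747), both above 0. The short Tsc22d3 call was lost without replicate 1 of Saline-Saline, and without several other single libraries. Neither passed adjustment over all genes tested.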

How the results depend on the processing

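Over all alternatives, 2494 values of single models kept their side of the threshold, 14 were newly called and 22 lost their call. None changed direction with a call in either fit (0 reversed). A value called in neither fit was counted as kept even where its sign changed. For Sgk1, the averaged heroin effect of 0.12 ran from -0.033 to 0.22 when single libraries were left out. Leaving out each library in turn moved the number of called models between 0 and 1 for Saline-Heroin, and for LPS-Heroin, against Saline-Saline, for LPS-Heroin against Saline-Heroin and for LPS averaged over heroin. It moved it between 1 and 4 for Heroin-SA against Saline-SA, between 1 and 2 for the difference of heroin effects and between 6 and 8 for Saline-SA against Saline-Saline. In the injection experiment the newly called models were Errfi1 without Saline-Heroin replicate 4 (0.39 against Saline-Saline), Pdk4 without the same library (LPS-Heroin against Saline-Heroin, -0.47) and the short Tsc22d3 model without LPS-Heroin replicate 2 (-0.82 against Saline-Saline, -0.50 against Saline-Heroin, -0.45 for averaged LPS). Without Saline-Saline replicate 4, Sgk1 was called in the difference of heroin effects (0.83). Limma-voom called 1 model rather than 2 in the difference of heroin effects, and Fkbp5 dropped under the fold limit between the control groups (0.34). For correlated pairs, quantile normalization gave 1 passing pair, as did leaving out the 4 LPS-Heroin libraries, and leaving out the 4 Saline-SA libraries gave 2. The cause was not tested.

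Over all genes, a single fit of the 24 libraries gave 69 genes with an adjusted p under 0.05 in Heroin-SA against Saline-SA, where the 8 libraries alone gave 0. Limma-voom on the recovered reads called 812 genes there against 819. Without the filter on low values, which tests more genes, 582 rather than 358 genes were called in LPS-Saline against Saline-Saline, 548 rather than 345 in LPS-Heroin against LPS-Saline, 524 rather than 332 in LPS-Heroin against Saline-Heroin, 516 rather than 267 for averaged LPS, 628 rather than 372 for averaged heroin and 565 rather than 349 for the interaction. Without LPS-Saline replicate 3 the first count was 625 and that of averaged LPS 423, without Saline-Heroin replicate 2 that of Saline-Heroin was 727 rather than 465, and without Heroin-SA replicate 3 the difference of heroin effects called 1001 rather than 664. In LPS-Heroin against Saline-Saline 55.0% of calls were higher, and 44.4% with limma-voom. Same-numbered libraries were not paired: their deviations correlated at -0.24 to 0.18, with 0 of 15 pairs of groups all above 0.1. With the replicate number as a block, 3 of 11 models were called in Heroin-SA against Saline-SA, Pdk4 being added, and no other count of called models moved.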
